A study of Mus musculus with 6 samples.

Results

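MHC class I antigen presentation and the immunoproteasome were followed through 10 genes in oncogene-transformed mouse embryonic fibroblasts in which Zmat3, a target gene of p53 whose zinc finger protein binds RNA, was targeted with CRISPR/Cas9. The 10 genes were taken by name from the 27179 gene rows of the deposited table, and all 10 were found and passed the filter on low values. They are the heavy chains H2-K1 and H2-D1, the light chain B2m, the peptide loading genes Tap1, Tap2 and Tapbp, the immunoproteasome subunits Psmb8, Psmb9 and Psmb10, and the regulator Nlrc5.

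All 6 cell samples carried Cas9 (Cas9+), the adenoviral oncogene E1A and the activated oncogene HrasG12V, and all had received a lentiviral guide RNA, gone through selection and grown for 10 days before RNA was taken. The knockout group had 3 libraries, with guides sgZmat3 52.6, 51.5 and 54.8 in libraries 1, 2 and 3. The control group had 3 libraries, with the negative control guides EV, SPA and ACOCA in libraries 1, 2 and 3. No guide was used in more than 1 library, and the labels do not say whether the cells shared a starting culture, so the spread within a group includes differences between guides and may be partly technical.

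Class I molecules carry peptides from inside the cell to its surface, where cytotoxic T cells and natural killer cells read them. The proteasome cuts proteins into peptides, the Tap1 and Tap2 transporter moves them into the endoplasmic reticulum, and tapasin (Tapbp) helps load them onto a heavy chain paired with beta-2 microglobulin (B2m). Interferon exchanges 3 catalytic proteasome subunits, Psmb5, Psmb6 and Psmb7, for Psmb8, Psmb9 and Psmb10, and Nlrc5 is a transactivator of class I genes. Resting fibroblasts express class I at modest levels and raise it on exposure to interferon.

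The upstream sequences of 4 members are shown because class I genes are known to be controlled through NF-kB, CRE-like and interferon response elements upstream of their start. They are the 250 bases before the start in the RefSeq table of GRCm38.p6, 5′ to 3′ on the gene's own strand, for H2-K1 at chr17:34000334-34000583 (minus strand), H2-D1 at chr17:35262844-35263093 (plus), B2m at chr2:122147437-122147686 (plus) and Tap1 at chr17:34187306-34187555 (plus). Capitals mark matches, on either strand, to the NF-kB site of enhancer A, the interferon-stimulated response element (ISRE), a CRE-like core (TGACG) and the CCAAT box (CCAAT, or ATTGG when inverted).
H2-K1: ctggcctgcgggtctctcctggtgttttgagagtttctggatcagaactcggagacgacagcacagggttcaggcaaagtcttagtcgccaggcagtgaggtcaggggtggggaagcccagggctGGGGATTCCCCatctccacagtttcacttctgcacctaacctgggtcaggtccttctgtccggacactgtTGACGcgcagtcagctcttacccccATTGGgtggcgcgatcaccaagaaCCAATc
H2-D1: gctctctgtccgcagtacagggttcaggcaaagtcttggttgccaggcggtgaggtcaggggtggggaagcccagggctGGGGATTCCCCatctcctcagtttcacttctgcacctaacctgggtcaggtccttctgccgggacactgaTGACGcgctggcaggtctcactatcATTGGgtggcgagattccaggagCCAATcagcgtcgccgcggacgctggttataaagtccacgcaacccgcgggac
B2m: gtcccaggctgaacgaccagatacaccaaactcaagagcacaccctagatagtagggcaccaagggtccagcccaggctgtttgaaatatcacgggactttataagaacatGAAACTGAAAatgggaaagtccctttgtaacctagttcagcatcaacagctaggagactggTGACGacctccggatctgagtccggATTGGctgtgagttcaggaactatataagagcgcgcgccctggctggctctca
Tap1: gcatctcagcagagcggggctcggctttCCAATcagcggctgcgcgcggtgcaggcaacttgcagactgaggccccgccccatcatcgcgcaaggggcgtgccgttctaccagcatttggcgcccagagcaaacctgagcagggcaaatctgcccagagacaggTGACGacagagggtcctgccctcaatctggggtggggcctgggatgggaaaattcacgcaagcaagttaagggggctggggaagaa

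Both heavy chain windows held the NF-kB site, 125 bases before the start in H2-K1 and 171 bases before it in H2-D1, and in both it began 70 bases before the CRE-like core. H2-K1 has 2 starts in RefSeq. The window shown uses the one farther downstream, and from the other the site lay at -111. Windows of 250 bases before to 50 after the start held this site in 2 of the 8 members with an entry. Over all genes 15 of 27025 (0.0555%) held it, in 16 of 32851 promoters (0.0487%). In H2-K1, H2-D1 and B2m the CRE-like core was followed, after 20 bases, by an inverted CCAAT box. That spaced pair was chosen after the windows were seen. It was held by 27 of 27025 genes (0.0999%), in 31 of 32851 promoters (0.0944%). The ISRE was searched as a strict pattern. Its match lay 139 bases before the start in B2m alone among the 8 members, against 3.44% of promoters. Looser forms of the ISRE were not searched, so the heavy chain windows and the others without a match cannot be said to lack one. A further motif searched, the gamma-activated site (GAS, TTCNNNGAA), was found in Psmb8, 97 bases before the start. It was found in 8.30% of promoters and 9.55% of genes. The CRE-like core alone occurred in 20.8% of promoters and the CCAAT box in 37.4%. By their RefSeq starts, Tap1 and Psmb9 run in opposite directions from points 226 bases apart. Their windows share 275 bases, so the Tap1 sequence above also covers most of the Psmb9 window. The Psmb10 window held none of the 5 motifs, and the Tapbp window held CCAAT boxes only. All positions here are relative to RefSeq starts. The gene spans given below are from GENCODE, where a gene can begin elsewhere. The H2-D1 window, and the windows with matches in Psmb8 and Tapbp, lie inside those spans. They are therefore upstream of the RefSeq start only.

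The libraries held 69515101, 55383299 and 53253055 reads in knockout libraries 1, 2 and 3 and 81027772, 90256118 and 60730974 reads in control libraries 1, 2 and 3. Control library 3 stood apart from the other 5, with a mean correlation of 0.941 with the rest against 0.969 to 0.975. It also had reads in 21067 gene rows, against 16889 to 17530 in the other 5. Zmat3 stood at 11421, 4912 and 4960 normalised read counts in knockout libraries 1, 2 and 3, against 17169, 15868 and 17434 in control libraries 1, 2 and 3. Knockout library 1 therefore kept 67.9% of the control mean of the transcript, and libraries 2 and 3 kept 29.2% and 29.5%. The groups did not overlap. How much Zmat3 protein was left in each library was not measured here. Zmat3 was not called by limma (log2 fold change -1.36, SE 0.33, adjusted p = 0.371) and was called lower by DESeq2 (adjusted p = 0.0444), though not when control library 3 was left out (DESeq2 adjusted p = 0.21). Fibroblast markers were uneven, with Vim at 165927 ± 17025 in knockout and 168179 ± 23664 in control (SD, n = 3 each) but Lum listed at 0 in all 6 libraries and Col1a2 at most at 14.2. Of the 8 fibroblast markers tested 6 had positive log2 fold changes, and their median of 0.76 became 0.17 without control library 3. Of the 5 epithelial markers tested 3 were positive, at a median of 0.90 (0.25 without that library), and values ran from -2.95 for Krt18 to 0.98 for Cdh1. Epcam, an epithelial marker, stood at 22426 ± 2736 in knockout and 15851 ± 11046 in control. The summed fibroblast list ran from 232512 to 261425 in knockout and from 218618 to 243851 in control, and the epithelial list from 24602 to 28840 in knockout and from 14003 to 32479 in control. Of 13 leukocyte markers 3 passed the filter, and the list summed to between 7227 and 9304 in knockout and between 865 and 6112 in control, at a median of 1.12 that became -0.0082 without control library 3. The 2 endothelial markers tested had a median of 0.68, which became 0.08. Cd68, a lysosomal protein, made up most of that sum, while Tyrobp and Laptm5 were listed at 0 in all libraries and Ptprc reached at most 8.26. Values below are normalised read counts in libraries 1, 2 and 3 of each group, and the part of these marker levels in the results was not tested.

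None of the 10 members passed limma, a linear model fitted across all genes, at a false discovery rate of 0.05. Over all genes limma called 0 of 14777 (0%), and 5 of 14960 without control library 3 (0.0334%) with no member among them, edgeR called 0 members and 0 genes (0%), and DESeq2 called 0 members against 129 of 14475 genes (0.891%). At an unadjusted limma p under 0.05 there were 2 members, H2-K1 and B2m, against 13.2% of all genes. The log2 fold change was positive for 9 of 10 members, against 51.6% of all genes, and the members' median was 0.70 against 0.01 over all genes. Without control library 3 that median was 0.27, with all 10 members positive against 50.9% of all genes. Knockout and control libraries did not overlap for 1 member, B2m, against 27.5% of genes in either direction and 13.2% in the higher direction. B2m was also the 1 such member without control library 3, against 35% of genes in either direction and 17.4% in the higher direction. In bulk RNA, fewer cells of a kind and less RNA per cell cannot be told apart.

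**Figure D1:**
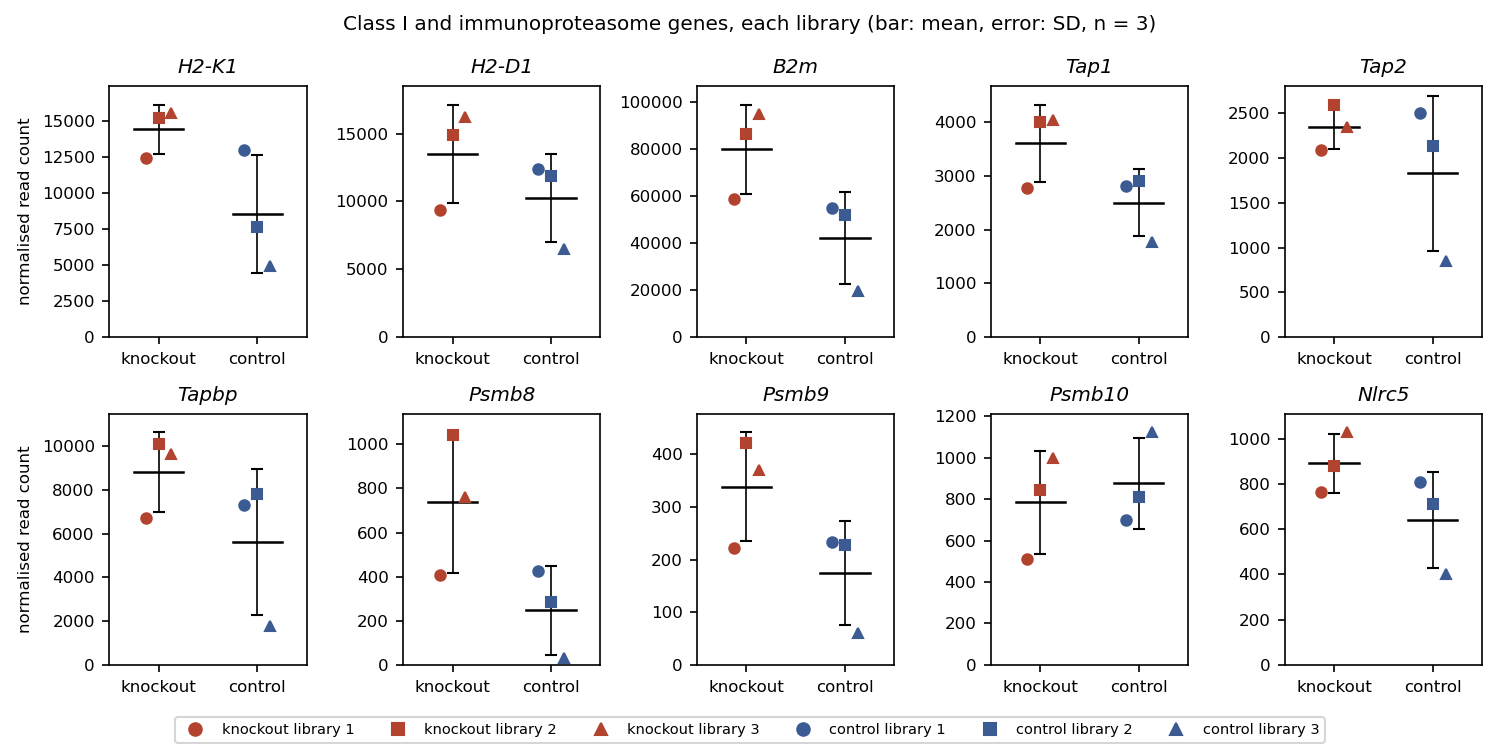
Normalised read counts of the 10 members (linear axes) in the 3 knockout and 3 control libraries, 1 point per library. Bars show the mean and error bars the SD (n = 3). Control library 3 is the lowest point for 9 members and the highest for Psmb10, and the groups are apart for B2m alone.

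The classical heavy chains bind the peptide and define what T cells see. H2-K1 (Entrez gene 14972, chromosome 17 of GRCm38, 33996017 to 34000347, minus strand) stood at 12447, 15241 and 15571 in knockout, against 12998, 7659 and 4937 in control. Control library 1 lay inside the knockout range, so the groups overlapped, and control libraries 2 and 3 were the low ones. Its means were 14420 ± 1716 in knockout and 8532 ± 4101 in control (SD, n = 3 each), and the limma log2 fold change was 0.86 (SE 0.33, adjusted p = 0.371). An exact two-sided permutation test gave p = 0.2, and with 3 against 3 libraries this permutation test cannot go below 0.1. With control library 3 left out the limma value was 0.52.

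H2-D1 (Entrez gene 14964, chromosome 17, 35262730 to 35267499, plus strand), the other heavy chain measured, stood at 9360, 14876 and 16238 in knockout, against 12399, 11873 and 6492 in control. Knockout library 1 was below control libraries 1 and 2, so the groups overlapped. The limma log2 fold change was 0.41 (SE 0.31, adjusted p = 0.479), and 0.11 without control library 3. Stretches of 50 bases shared with transcripts of other genes made up 8.79% of the H2-K1 transcript and 14.3% of the H2-D1 transcript, among them H2-Q and H2-T genes. Counts of the heavy chains are uncertain to that extent, since how such reads were counted is not given in the sources used here.

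B2m (Entrez gene 12010, chromosome 2, 122147686 to 122153083, plus strand), the light chain shared by class I molecules, stood at 58738, 86289 and 94988 in knockout, against 55072, 51983 and 19818 in control. Every knockout library was above every control library, although knockout library 1 exceeded control library 1 by little. The means were 80005 ± 18924 in knockout and 42291 ± 19524 in control (SD, n = 3 each), a ratio of 1.89. Limma gave a log2 fold change of 1.03 (SE 0.42, adjusted p = 0.371), and the exact two-sided permutation test gave p = 0.1. With control library 3 left out, limma gave a log2 fold change of 0.55 and DESeq2 gave the lowest adjusted p of any member under the settings tried, 0.07, against 5.49% of genes called in that fit. B2m made up 62.5%, 63.3% and 65.1% of the reads of the 10 members in knockout and 57.8%, 60.2% and 53.2% in control.

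The peptide transporter is a dimer of Tap1 and Tap2. Tap1 (Entrez gene 21354, chromosome 17, 34187553 to 34197225, plus strand) stood at 2772, 4008 and 4031 in knockout, against 2805, 2912 and 1778 in control. Knockout libraries 2 and 3 were above all control libraries, and knockout library 1 was below control libraries 1 and 2. The limma log2 fold change of Tap1 was 0.54 (SE 0.24, adjusted p = 0.371), and 0.31 without control library 3.

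Tap2 (Entrez gene 21355, chromosome 17, 34203527 to 34216321, plus strand) stood at 2095, 2596 and 2352 in knockout, against 2500, 2140 and 850 in control. The groups overlapped, with control library 3 far below the other 5. Its limma log2 fold change was 0.50 (SE 0.40, adjusted p = 0.498) over all libraries and 0.02 without control library 3.

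Tapbp (Entrez gene 21356, chromosome 17, 33915899 to 33929292, plus strand), which bridges the transporter and the empty heavy chain, stood at 6720, 10082 and 9629 in knockout, against 7319, 7800 and 1776 in control. Knockout library 1 was below control libraries 1 and 2. The limma log2 fold change was 0.90 (SE 0.56, adjusted p = 0.425), and 0.20 without control library 3. Zbtb22 overlaps Tapbp by 3422 bases on the same strand and averaged 2336 over the 6 libraries, and how reads of the overlap were counted is not given.

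Of the 10 members, Psmb8 and Psmb9 differed most between libraries and Psmb10 least, by the ratio of the highest to the lowest library. Psmb8 (Entrez gene 16913, chromosome 17, 34197721 to 34201454, plus strand), which replaces Psmb5, stood at 408, 1042 and 759 in knockout, against 427, 283 and 30.7 in control. The value in control library 3 rests on 26 reads, and the highest library was 34.0 times the lowest. Knockout library 1 was just below control library 1, so the groups overlapped. Limma gave a log2 fold change of 2.13 (SE 0.97, adjusted p = 0.372) over all libraries and 0.98 without control library 3.

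Psmb9 (Entrez gene 16912, chromosome 17, 34181987 to 34187764, minus strand), which replaces Psmb6, stood at 222, 422 and 371 in knockout, against 234, 228 and 60.2 in control. Knockout library 1 again lay just below control libraries 1 and 2. The limma log2 fold change was 1.14 (SE 0.58, adjusted p = 0.377), and 0.50 without control library 3. Psmb9 and Tap1 overlap by 212 bases on opposite strands, and the strand setting of the counting is not given in the sources used here.

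Psmb10 (Entrez gene 19171, chromosome 8, 105935735 to 105938444, minus strand), which replaces Psmb7, stood at 510, 842 and 1000 in knockout, against 699, 809 and 1122 in control. It was the only member whose highest value lay in control library 3, against 36.8% of all genes, and that value was 149% of the mean of control libraries 1 and 2. The groups overlapped throughout. Its limma log2 fold change was -0.19 (SE 0.31, adjusted p = 0.737), and 0.004 without control library 3.

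Nlrc5 (Entrez gene 434341, chromosome 8, 94434356 to 94527272, plus strand) stood at 765, 880 and 1029 in knockout, against 807, 712 and 404 in control. Knockout library 1 lay between control libraries 1 and 2. The limma log2 fold change was 0.53 (SE 0.29, adjusted p = 0.392), and 0.22 without control library 3.

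**Figure D2:**
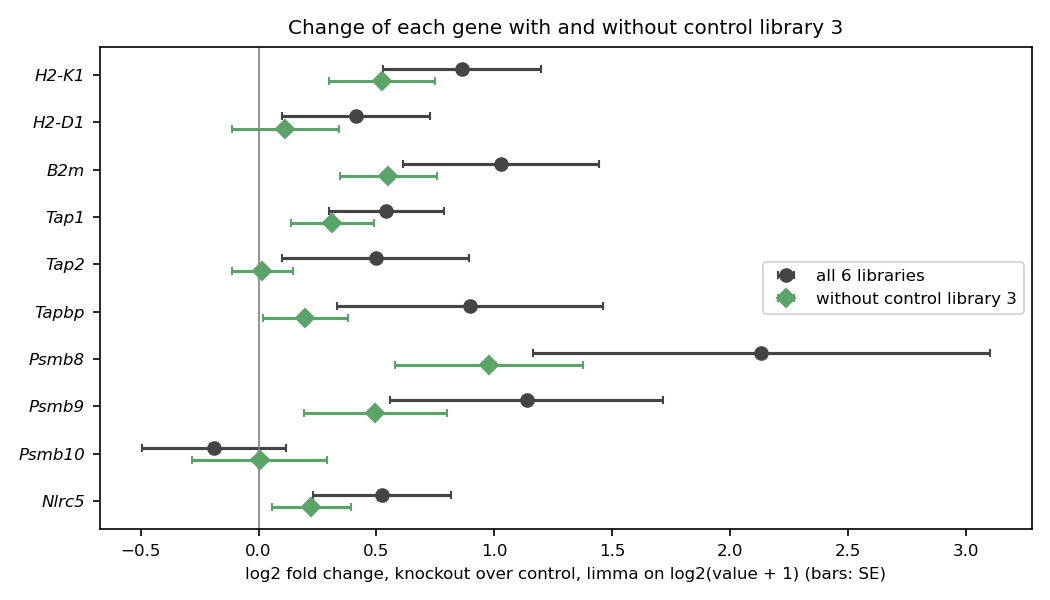
Limma log2 fold changes (knockout over control) of the 10 members with their standard errors, over all 6 libraries and without control library 3. All 10 values lie nearer to 0 when control library 3 is left out, and Psmb8 has the largest value in both, at 2.13 and 0.98.

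The position of single libraries ran through the whole group. Control library 3 was the lowest of the 6 libraries for 9 of 10 members, against 36.6% of all genes. It stood at 8.64% of the mean of control libraries 1 and 2 for Psmb8, 23.5% for Tapbp and 37.0% for B2m. Knockout library 1, which kept most Zmat3 transcript, was the lowest of the 3 knockout libraries for 10 of 10 members, against 43.4% of all genes. Set against the range of control libraries 1 and 2, it was below for 6 members, within for 3 and above for 1. Knockout library 2 was above that range for 10 members and knockout library 3 for 9. The 10 members together took 0.150%, 0.213% and 0.226% of reads in knockout, against 0.148%, 0.131% and 0.052% in control. Whether the level of Zmat3 or another feature of these libraries has a part in this order was not tested.

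Levels between genes were compared per kilobase of transcript, as normalised read counts. B2m was the highest, at 93029 ± 22005 in knockout and 49176 ± 22702 in control (SD, n = 3 each), and was above H2-K1 in all 6 libraries with no overlap. H2-K1 followed at 8907 ± 1060 in knockout and 5270 ± 2533 in control, and H2-D1, whose range overlapped it, stood at 6418 ± 1733 in knockout and 4879 ± 1555 in control. Tapbp, Tap1, Psmb10, Tap2, Psmb8 and Psmb9 came next in control, and in control each of these overlapped the next. In knockout the means of Psmb10 and Tap2 were in the other order. Nlrc5 was the lowest, at 118 ± 17.4 in knockout and 84.6 ± 27.8 in control.

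Catalytic subunits were compared by transcript ratios within a library, which do not depend on scaling between libraries. Such ratios do not measure exchange of subunits in the proteasome itself. The share of other gene pairs whose ratios separate the groups was not computed. Per length, Psmb8 stood at 10.7%, 19.2% and 13.7% of Psmb5 in knockout, against 6.75%, 4.32% and 0.391% in control. Every knockout library was above every control library. The mean log2 ratio differed by 2.63, and by 1.38 without control library 3, with p = 0.1 in an exact two-sided permutation test and 0.2 after adjustment over the 4 ratios computed. Psmb5 itself stood at 2720 ± 534 in knockout and 3818 ± 454 in control (SD, n = 3 each), also without overlap, against 27.5% of all genes in either direction.

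Psmb9 stood at 1.24%, 1.97% and 1.57% of Psmb6 in knockout, against 1.02%, 0.970% and 0.185% in control. These groups did not overlap either, with or without control library 3, although Psmb9 itself overlapped. Of the 3 constitutive subunits 0 had a positive log2 fold change. Their median was -0.32, and -0.17 without control library 3, which was the highest library for all 3. Their mean log2 deviation was lowest in knockout library 1, at -0.45, as was that of the other 20S subunits, at -0.30. In that library Psmb8 and Psmb9 themselves were below control library 1. Their ratios were higher than in control library 1 because the constitutive subunits were lower. The mean log2 ratio of Psmb9 to Psmb6 differed by 1.46, and by 0.65 without control library 3 (exact permutation p = 0.1, adjusted 0.2).

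Psmb10 stood at 3.34%, 4.54% and 5.10% of Psmb7 in knockout, against 3.67%, 3.90% and 4.20% in control. The control values lay within the knockout range. The mean log2 ratio differed by 0.12 (exact permutation p = 0.6). For the heavy chains, the per-length ratio of H2-K1 to H2-D1 was 1.73, 1.33 and 1.24 in knockout, against 1.36, 0.838 and 0.987 in control, with overlap (exact permutation p = 0.3, adjusted 0.4).

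**Figure D3:**
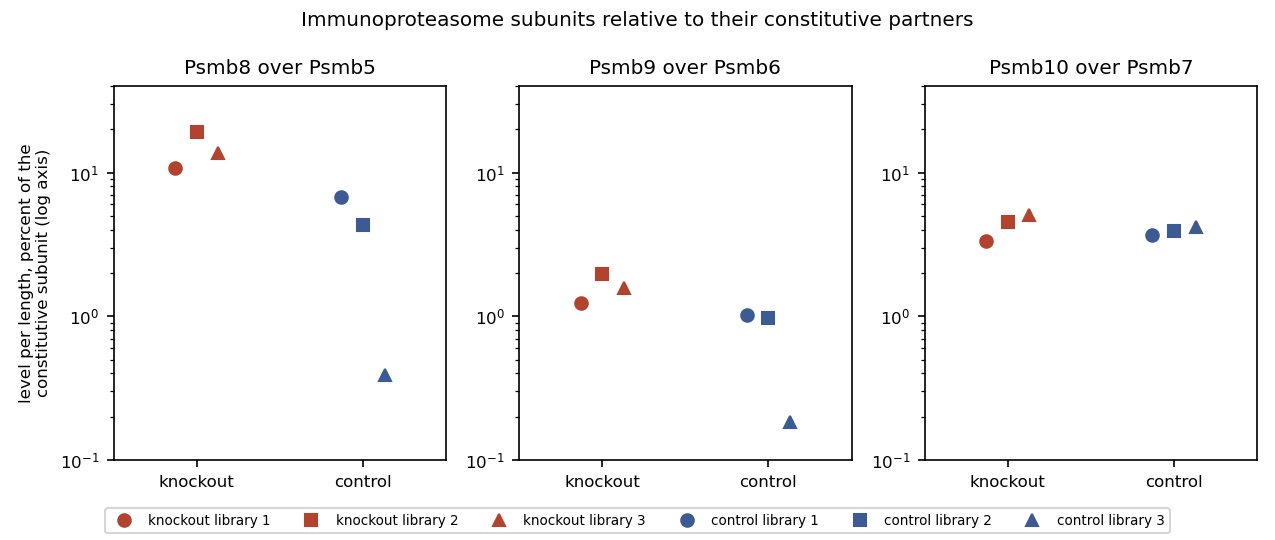
Within-library ratios, per length and on a log axis, of the immunoproteasome subunits to the constitutive subunits they replace, for each knockout and control library. Psmb8 to Psmb5 and Psmb9 to Psmb6 are separated between groups, and Psmb10 to Psmb7 overlaps.

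Other genes of the pathway were described from lists written with earlier results of these data known. Limma, edgeR and DESeq2 over all 6 libraries called none of their genes, and each list had between 0 and 3 genes at an unadjusted limma p under 0.05. All 15 nonclassical class I and class I-like genes tested had a positive log2 fold change. Their median was 0.79, and 0.48 when control library 3 was left out. Mr1, which presents vitamin metabolites, stood at 6522, 4924 and 5602 in knockout, against 4092, 3216 and 560 in control, and its groups did not overlap. Over all genes 13.2% were without overlap in the higher direction. H2-T23, a ligand of inhibitory receptors on natural killer cells, stood at 2305, 5205 and 6225 in knockout, against 2681, 2513 and 450 in control. Without control library 3, DESeq2 called Mr1 (adjusted p = 0.013) and H2-Q7 (adjusted p = 0.0251) higher, against 2.62% of genes called higher in that fit.

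Of the genes of peptide loading and trimming 2 of 12 were positive. Their median was -0.22, and -0.09 when control library 3 was left out. Calr, a chaperone of newly made heavy chains, stood at 31964 ± 3669 in knockout and 42609 ± 6626 in control (SD, n = 3 each), without overlap. Over all genes 27.5% were without overlap in either direction. Of the other 20S proteasome subunits 2 of 11 were positive, and their median of -0.21 became -0.01 without control library 3. Psme1 and Psme2, the interferon-induced proteasome activator subunits, had limma log2 fold changes of 0.12 and 0.29, and Psme3, the nuclear activator, -0.55.

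Class II genes and their machinery had 6 of 6 tested genes positive, at a median of 1.00 over all libraries and 0.58 without control library 3. H2-DMb1, a subunit of the class II peptide exchanger, stood at 909, 1067 and 1077 in knockout, against 736, 587 and 140 in control. DESeq2 called it higher without control library 3 (adjusted p = 0.0189), against 2.62% of genes called higher in that fit. Ciita, the master regulator of class II genes, stayed under the filter, at 0 in the 3 knockout libraries and at most 17.7 in control.

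Interferon response genes had a different order of libraries. Of 27 genes 25 were positive, and their median of 0.77 became -0.13 without control library 3. On the log2 scale, their mean lay 2.76 higher in knockout library 2 than in knockout library 1, against 0.61 for the members. Control library 2 lay 1.21 above control library 1 for these genes, whereas it lay 0.16 below it for the members. Irf1, a factor that acts on class I promoters, stood at 1994, 2038 and 2089 in knockout, against 1987, 1929 and 850 in control. Ifnb1 and Ifng, the genes of interferon beta and gamma, were at most 2.43 and 3.17 in any library.

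Interferon-inducible GTPases were positive in 11 of 11, and their median of 0.94 became 0.01 without control library 3. Of the interferon receptors and signalling genes 8 of 11 were positive, at a median of 0.28. Jak2, a kinase bound to the interferon gamma receptor, stood at 7032, 7110 and 7654 in knockout, against 5785, 5850 and 3361 in control, without overlap. Over all genes 13.2% were without overlap in the higher direction. DESeq2 called Jak2 higher when control library 3 was left out (adjusted p = 0.031), against 2.62% of genes called higher in that fit. Transcription regulators of class I genes were positive in 9 of 21 (median -0.09), and proteasome activators and assembly factors in 3 of 9 (median -0.13). All 9 ligands of natural killer and T cell receptors tested were positive, at a median of 0.40 over all libraries and 0.17 without control library 3.

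**Figure D4:**
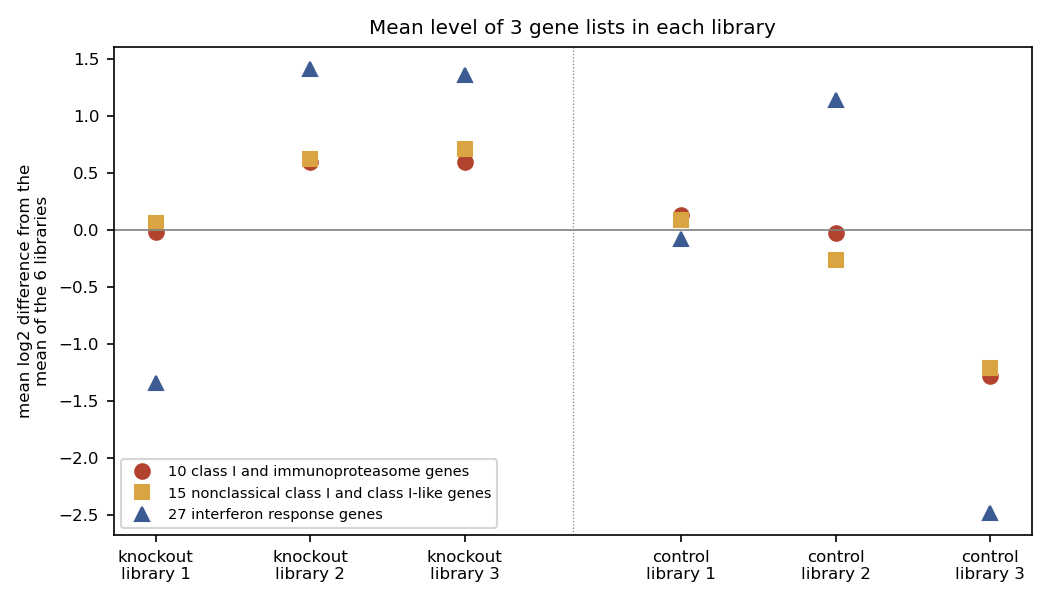
Mean log2 deviation of the members, nonclassical class I and class I-like genes and interferon response genes from their average over the 6 libraries. Libraries are shown with knockout before control. The members lie at -0.01, 0.60 and 0.59 in knockout and 0.13, -0.03 and -1.28 in control, and interferon response genes at -1.35, 1.41 and 1.36 in knockout and -0.08, 1.14 and -2.48 in control.

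Among the members, H2-D1 and Tap1 had the most similar profiles over the 6 libraries, with a root mean square difference of 0.126 on the centred log2 scale. Nlrc5 and Tap1 differed by 0.140 and Tapbp and Psmb9 by 0.169, and Psmb8 and Psmb10 were the farthest apart, at 1.81. Of 13015 other genes with a mean of at least 50, the 10 nearest to the members' mean profile were Slc9a9, Cox7a1, Npc2, Tnfrsf26, Ccdc180, Arc, Capg, Cyp4v3, Csgalnact1 and H2-T22. Their differences ran from 0.046 for Slc9a9 to 0.131 for H2-T22, which was the only class I gene among them.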

How the data were processed

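RNA was extracted with an RNeasy Mini kit, per the labels' protocols, and sequenced using Illumina TruSeq v2, per the series' design text. STAR, DESeq2 and the mm10 build are named, per the submitters' processing notes. The annotation, the counter and the strand setting are not given. The authors deposited a normalised signal for each gene, equal to whole read counts scaled by 1 factor per library. All values were whole multiples of the value of 1 read (100% within 0.001), so reads were recovered. Rows without a name (6263 of 27179) held 1.90% to 2.23% of reads, and 4376 were given a RefSeq symbol.

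The filter was filterByExpr at a minimum of 10, and 14777 genes passed. Limma 3.58.1 (trend, robust; R 4.3.3) was run on log2(value + 1), two-sided, with Benjamini-Hochberg adjustment over all genes; small values look less changed on this scale. The count tests DESeq2 1.42.0 and edgeR 4.0.16 on recovered reads served as alternatives. Scaling, filter, pseudocount, replicate block and left-out libraries were also varied. The scripts were tested on simulated data. The members and lists were chosen with earlier results of these data known. Named genes were the members, Zmat3, Psmb5 to Psmb7, Psme1 to Psme3, Irf1, a further gene that is not reported here, the up to 4 most abundant genes per list with any called gene, and the 10 nearest profiles; H2-DMb1, Zbtb22, Ciita, Ifnb1, Ifng, Krt18, Cdh1 and the markers at or near 0 were named after their values were seen. Upstream sequences and their starts came from RefSeq. Gene spans, transcript lengths, overlaps between genes and shared stretches came from GENCODE.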

Additional observations from a re-analysis of the deposited data

How the results depend on the processing

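No member was called under any of 18 alternatives, and the lowest adjusted p among them was 0.07 (DESeq2). The number of genes called moved from 0 to 129 with DESeq2 and, without control library 3, to 5 with limma, 5 with edgeR and 711 with DESeq2; leaving out 1 library at a time gave 0 to 5 with limma. The log2 fold change of Psmb10 turned positive without knockout library 1 (0.094) and without control library 3 (0.0042 with limma, 0.046 with DESeq2 and 0.055 with edgeR), and ran from -0.39 to 0.094 with 1 library left out. Without knockout library 3 the Psmb10 to Psmb7 difference was -0.0064, and with 1 library left out it ran from -0.0064 to 0.30. Without control library 3 the list medians turned to -0.13 for interferon response genes and -0.0082 for leukocyte markers. The cause of these shifts was not tested. Over the members, the median was lowest without control library 3 (0.27) and highest without control library 1 (1.01). Knockout and control libraries of the same replicate number had r = 0.26, 0.20 and -0.02 for numbers 1, 2 and 3. For libraries of different numbers r ran from -0.32 to 0.22. These values do not settle whether the numbers pair the libraries. Limma with the replicate block called 0 genes and no member, with a median of 0.70. With 3 libraries per group, and Psmb8 at 26 reads in control library 3, small differences were not detectable. Larger ones also went uncalled by limma over all 6 libraries. Among them were Psmb8, at a log2 fold change of 2.13 (limma adjusted p = 0.372), and Zmat3, at -1.36 (limma adjusted p = 0.371).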
